A study of Vitis vinifera with 9 samples.

Results

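The entry of the phenylpropanoid pathway was followed in UV-C treated grape leaves through phenylalanine ammonia-lyase (PAL), cinnamate 4-hydroxylase (C4H) and 4-coumarate:CoA ligase (4CL). All probe sets whose gene symbol in the deposited annotation contained one of 7 member symbols were taken, which gave 8 probe sets for 7 genes among 16436 probe sets tested. PAL was represented by 3 genes (LOC100241377, LOC100233012 and LOC100241575) and 4CL by 3 genes (LOC100254698, 4CL and LOC100267198), with 1 probe set each. C4H was represented by 1 gene, LOC100253493, with a gene-specific probe set and a probe set that can match more than 1 transcript. Since 5 of the 7 genes carry only the title of a hypothetical protein in the annotation, the enzyme was taken from the similarity to Arabidopsis proteins in the probe set descriptions and from the names used in the study. LOC100241377 is named PAL 2, and LOC100241575 is described as similar to a probable Arabidopsis PAL. LOC100254698 and 4CL are named 4CL 1 and 4CL 3, and LOC100267198 is a 4CL-like gene whose substrate these data do not give.

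Mature 30-day-old leaves of Vitis vinifera ‘Hongbaladuo’ were detached, kept with their petioles in water, held in the dark and then exposed on the lower surface to UV-C of 6 W m-2 for 10 min. The 3 groups were leaves at 0 h (control), at 6 h (UV-C 6 h) and at 12 h (UV-C 12 h) after the start of treatment, each with 3 replicates of 6 pooled leaves and 1 Affymetrix V. vinifera Genome Array per replicate. The control leaves were detached as well, and with no untreated leaves at 6 h or 12 h, an effect of UV-C and the time since detachment, darkness or time of day cannot be told apart. Whether the replicates came from separate vines is not given, so the p-values measure the spread between these pools of leaves.

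PAL removes the amino group of phenylalanine to give cinnamic acid and so leads carbon out of primary metabolism. C4H, a cytochrome P450 enzyme, hydroxylates cinnamic acid to p-coumaric acid, and 4CL joins this acid to coenzyme A. The product, p-coumaroyl-CoA, is the branch point to the stilbenes typical of grape, to the flavonoids, which include UV-absorbing leaf pigments, and to the precursors of lignin. Each enzyme is encoded by a family of genes in plants, so that members of 1 family can differ in when and where they are expressed.

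Values are RMA intensities as deposited, which are background-adjusted and quantile-normalized probe set signals on a linear scale. Changes are differences of mean log2 intensity with the standard error of a limma fit over all 9 arrays, and a call here needs both an adjusted p below 0.05 and a 2-fold or larger change. Intensities of different probe sets depend on their probes, so only changes and not levels were set against each other. Arrays of 1 group correlated at 0.9879 to 0.9961 over all probe sets. Among the probe sets found by the words for leaf photosynthesis genes, 37 gave summed intensities of 332154 to 353380 in control leaves, of 206110 to 226807 at 6 h and of 112791 to 124038 at 12 h, so the green leaf markers were present on all arrays, with lower sums after treatment. At 6 h 14 of the 37 were called lower, 0 higher and 23 neither, with a median log2 change of -0.58, and at 12 h 25 were called lower and 1 higher. In whole leaves, fewer cells of a type and less RNA per cell cannot be told apart.

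Control replicate 3 was the highest control array for every member, and it is named here before the comparisons. All 8 member probe sets were higher there than the mean of control replicates 1 and 2, by 0.06 to 1.75 in log2. C4H differed most, with 1.75 for the gene-specific and 1.61 for the shared probe set, which lay above 99.8% and 99.7% of all probe sets. Over all probe sets the median difference was -0.01, and 1.16% were at 1 or more. The array was thus not brighter as a whole, and the reason for its member values was not tested. Each control array was also set against the mean of the other control arrays. The median over the members was -0.57 in log2 for control replicate 1, -0.21 for control replicate 2 and 0.67 for control replicate 3. Control replicates 1 and 2 each had 1 member above 0. The means for these arrays include control replicate 3, so their negative medians follow in part from its high values. These offsets cannot decide which control arrays deviated.

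**Figure D1:**
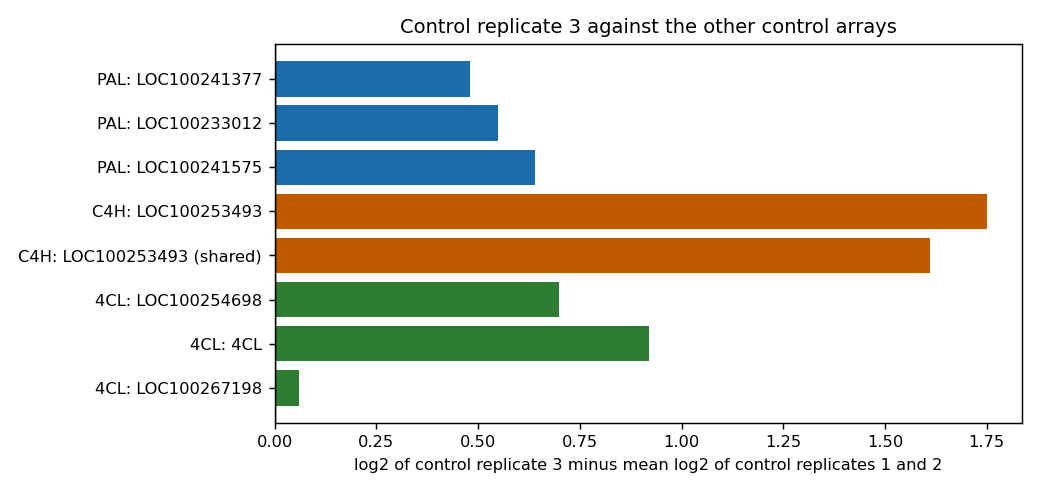
Bars give the log2 intensity of control replicate 3 minus the mean log2 intensity of control replicates 1 and 2 for each member probe set. All 8 bars are above 0, from 0.06 for LOC100267198 to 1.75 for the gene-specific C4H probe set.

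At 6 h against control, 5 of the 8 member probe sets rose, 2 fell and 1 was not called. Of all probe sets tested, 26.6% were called in this comparison, 11.9% higher and 14.7% lower, and of the 10471 with a deposited annotation, as all members have, 38.8% were called. At 12 h against control, 6 rose and 2 fell, beside 32.2% of all probe sets called, with 14.7% higher and 17.5% lower, and 46.7% of those annotated. The median log2 change of the members was 2.18 at 6 h and 2.13 at 12 h, against -0.03 and 0.05 over all probe sets tested. The genes that rose were PAL LOC100241377, the C4H gene and 4CL LOC100254698 and 4CL at both times and LOC100267198 at 12 h, while the genes that fell were both other PAL genes. Without control replicate 3 the calls were again 5 higher and 2 lower at 6 h, and 6 higher and 2 lower at 12 h. The comparisons of 6 h and of 12 h share the same control arrays. All 8 member probe sets are also listed by the study among its genes changed after UV-C, from these same arrays. The member counts and medians were thus largely fixed beforehand and are no separate evidence.

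**Figure D2:**
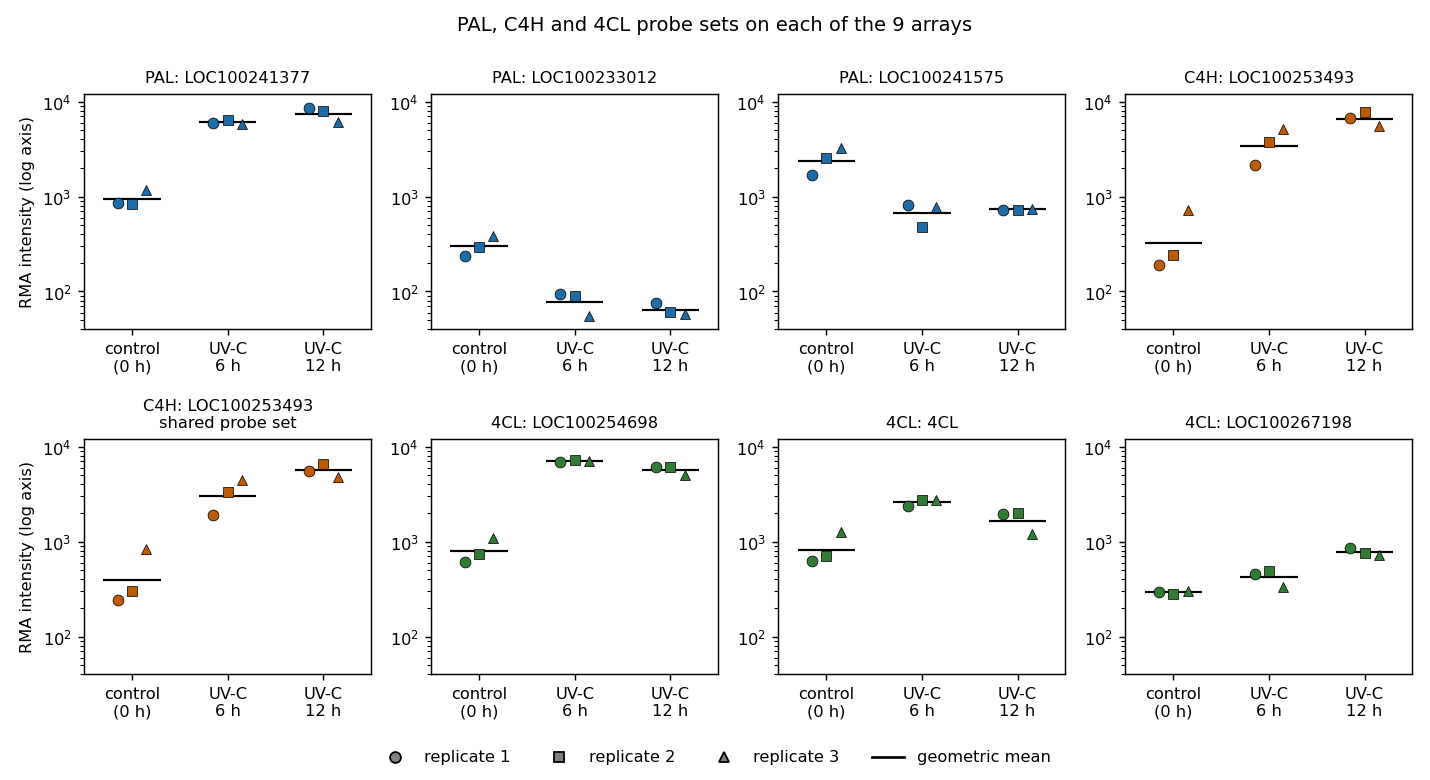
Each panel gives the RMA intensity (log axis) of 1 member probe set on the 3 arrays of control, UV-C 6 h and UV-C 12 h leaves, with a symbol for each replicate and a line at the geometric mean. LOC100233012 and LOC100241575 lie lower at 6 h and 12 h than in control leaves on every array, and the 12 h arrays of the gene 4CL overlap with the control arrays.

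The first step was split between genes. PAL LOC100241377 gave intensities of 854, 826 and 1172 in control leaves, of 6013, 6338 and 5873 at 6 h and of 8507, 7880 and 6077 at 12 h. Every treated array lay above every control array. Treated and control arrays were apart, in either direction, for 60.2% of all probe sets at 6 h and 64.4% at 12 h. Among annotated probe sets these shares were 76.4% and 79.5%. The 6 h and 12 h arrays of LOC100241377 overlapped. Its log2 change was 2.69 ± 0.16 at 6 h, a 6.47-fold rise (limma, adjusted p = 5.68e-07), and 2.98 ± 0.16 at 12 h, a 7.9-fold rise (limma, adjusted p = 1.81e-07). Replicates at 6 h were close, with a highest to lowest ratio of 1.08, against 1.4 at 12 h and 1.42 in control leaves.

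PAL LOC100233012 ran the other way. Its probe set carries the title phenylalanine ammonia-lyase but was designed from a sequence of Vitis riparia, a wild grape. It gave 237, 293 and 385 in control leaves, 93.8, 90.0 and 55.5 at 6 h, and 75.5, 60.4 and 58.4 at 12 h. All 6 treated arrays lay below the 3 control arrays. It fell, with a log2 change of -1.95 ± 0.23 at 6 h, a 3.85-fold fall (limma, adjusted p = 6.05e-05), and -2.22 ± 0.23 at 12 h, a 4.65-fold fall (limma, adjusted p = 1.85e-05).

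PAL LOC100241575 gave 1676, 2526 and 3206 in control leaves, 822, 472 and 780 at 6 h, and 722, 729 and 743 at 12 h. Treated arrays again lay below all control arrays, and the 12 h replicates differed little, with a highest to lowest ratio of 1.03. The log2 change was -1.83 ± 0.26 at 6 h, a 3.55-fold fall (limma, adjusted p = 1.77e-04), and -1.71 ± 0.26 at 12 h, a 3.26-fold fall (limma, adjusted p = 2.33e-04). For both falling genes control replicate 3 was the highest control array. Without it their log2 changes at 6 h were -1.76 for LOC100233012 and -1.62 for LOC100241575, both still called.

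The change of LOC100241377 was set against that of each other PAL gene within the arrays. Its log2 change exceeded that of LOC100233012 by 4.64 at 6 h and 5.2 at 12 h, and that of LOC100241575 by 4.52 and 4.69. The within-array differences of treated and control leaves did not overlap in any of these 4 contrasts, each with an exact two-sided permutation p of 0.1, the smallest that this test allows with 3 against 3 arrays and so never under 0.05 (adjusted p = 0.14 over 21 contrasts within enzymes). The log2 changes of LOC100233012 and LOC100241575 differed by -0.12 at 6 h, with overlapping arrays (exact permutation p = 0.7, adjusted p = 0.735), and by 0.23 without UV-C 6 h replicate 3. At 12 h the change of LOC100233012 was lower than that of LOC100241575 by 0.51 in log2 without overlap (contrast of -0.51, exact permutation p = 0.1, adjusted p = 0.14).

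In the second step both C4H probe sets rose at both times, and at 12 h they had the highest log2 changes of the members. The gene-specific C4H probe set of LOC100253493 gave 189, 243 and 722 in control leaves, 2126, 3728 and 5129 at 6 h, and 6705, 7703 and 5534 at 12 h. No array overlapped between the 3 groups, although control replicates spanned 3.82-fold and 6 h replicates 2.41-fold. Its log2 change was 3.42 ± 0.47 at 6 h, a 10.7-fold rise (limma, adjusted p = 1.60e-04), and 4.36 ± 0.47 at 12 h, a 20.5-fold rise (limma, adjusted p = 2.27e-05). Without control replicate 3 the rise was 16.1-fold at 6 h and 30.7-fold at 12 h, so the size of the change, but not its call, depended on this array. The standard error was the largest among the members.

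The shared C4H probe set gave 243, 303 and 828 in control leaves, 1918, 3325 and 4415 at 6 h, and 5608, 6599 and 4841 at 12 h. Within each group the arrays were in the same order as for the gene-specific probe set. Its log2 change was 2.95 ± 0.44 at 6 h, a 7.72-fold rise (limma, adjusted p = 2.64e-04), and 3.84 ± 0.44 at 12 h, a 14.3-fold rise (limma, adjusted p = 3.33e-05). Both probe sets carry the symbol of the same gene and are not independent, though the shared one can also match other transcripts. The gene-specific probe set changed more, by 0.47 in log2 at 6 h and 0.52 at 12 h, with no overlap of the within-array differences (exact permutation p = 0.1 each, adjusted p = 0.14).

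In the third step all 3 4CL genes had higher means after treatment. LOC100254698 (4CL 1) gave 612, 736 and 1094 in control leaves, 6895, 7257 and 7082 at 6 h, and 6082, 6132 and 4984 at 12 h. Replicates at 6 h spanned only 1.05-fold, and all of them lay above the 12 h arrays. The log2 change was 3.16 ± 0.19 at 6 h, an 8.96-fold rise (limma, adjusted p = 5.42e-07), and 2.85 ± 0.19 at 12 h, a 7.22-fold rise (limma, adjusted p = 7.09e-07).

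The gene 4CL (4CL 3) gave 626, 707 and 1258 in control leaves, 2380, 2767 and 2732 at 6 h, and 1943, 1986 and 1201 at 12 h. At 6 h the arrays were apart from control, whereas UV-C 12 h replicate 3 lay below control replicate 3. The log2 change was 1.67 ± 0.27 at 6 h, a 3.19-fold rise (limma, adjusted p = 4.65e-04), and 1.02 ± 0.27 at 12 h, a 2.03-fold rise (limma, adjusted p = 0.00837). The 12 h change lies at the 2-fold threshold. It came to 1.77-fold without control replicate 1, 1.88-fold without control replicate 2, 1.88-fold without UV-C 12 h replicate 1 and 1.85-fold without UV-C 12 h replicate 2, and was then no longer called, and to 2.51-fold without control replicate 3.

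LOC100267198 (4CL-like) gave 296, 281 and 300 in control leaves, 454, 495 and 334 at 6 h, and 851, 752 and 719 at 12 h. Its control replicates spanned 1.07-fold, the least of the members, and the 3 groups did not overlap. The log2 change of 0.53 ± 0.15 at 6 h (1.44-fold, limma, adjusted p = 0.0116) was under the 2-fold threshold. At 12 h it was 1.40 ± 0.15, a 2.64-fold rise (limma, adjusted p = 1.73e-05).

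Within the arrays, the log2 change of LOC100254698 exceeded that of 4CL by 1.49 at 6 h and 1.83 at 12 h, and that of LOC100267198 by 2.63 at 6 h and 1.45 at 12 h (exact permutation p = 0.1 each, adjusted p = 0.14). The gene 4CL exceeded LOC100267198 by 1.14 at 6 h (exact permutation p = 0.1, adjusted p = 0.14). At 12 h the contrast was -0.38, with overlapping arrays (exact permutation p = 0.5, adjusted p = 0.583).

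**Figure D3:**
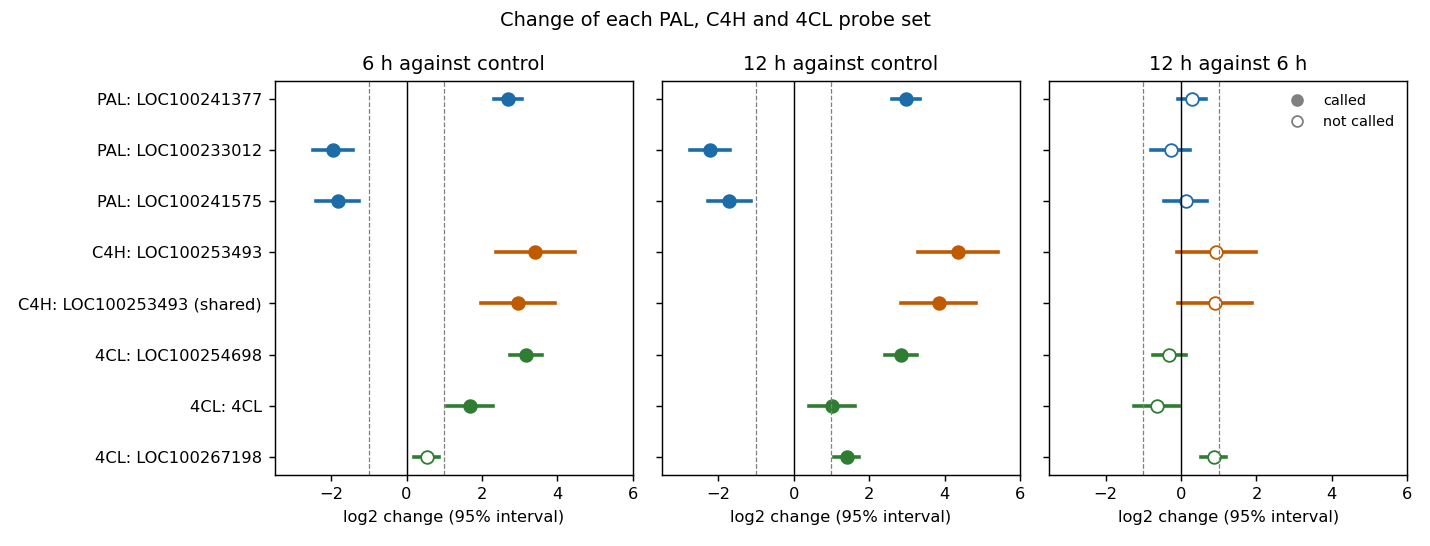
Points give the log2 change of each member probe set at 6 h against control, at 12 h against control and at 12 h against 6 h, with 95% intervals of the limma fit, filled where called, and dashed lines at the 2-fold threshold. The intervals of the falling PAL genes lie wholly below 0 in both comparisons with control, and no point of 12 h against 6 h is filled.

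Between 12 h and 6 h, 0 of the 8 member probe sets were called (limma), beside 6.88% of all probe sets, with 2.34% higher and 4.54% lower, and 10.4% of those annotated. At an unadjusted p under 0.05, 4CL and LOC100267198 passed. LOC100267198 was higher at 12 h by 0.87 ± 0.15 in log2, or 1.83-fold, which passed the adjusted threshold but not the 2-fold one (limma, adjusted p = 0.00207). The gene 4CL was lower at 12 h by -0.65 in log2 (95% interval -1.26 to -0.05, limma, adjusted p = 0.104), and all its 12 h arrays lay below its 6 h arrays. Likewise without overlap, LOC100254698 had a log2 change of -0.31 (-0.74 to 0.12, adjusted p = 0.269), and C4H had 0.94 (-0.12 to 2.00, adjusted p = 0.176) with the gene-specific and 0.89 (-0.09 to 1.87, adjusted p = 0.167) with the shared probe set. Of all probe sets, 45.2% had non-overlapping arrays in this comparison, and 58.6% of those annotated, so a lack of overlap alone was common.

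The PAL genes gave log2 changes of 0.29 for LOC100241377 (-0.08 to 0.66, limma, adjusted p = 0.231), of -0.27 for LOC100233012 (-0.79 to 0.25, adjusted p = 0.439) and of 0.12 for LOC100241575 (-0.45 to 0.70, adjusted p = 0.77). Their 12 h and 6 h arrays overlapped. At 12 h against 6 h the change of 4CL was lower than that of LOC100267198 by 1.52 in log2 (contrast of -1.52), and that of LOC100254698 was lower by 1.18 (contrast of -1.18), in both cases without overlap of the within-array differences (exact permutation p = 0.1 each, adjusted p = 0.14).

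The genes before and after the entry step were taken from lists of words in the annotation. Of all annotated probe sets, 17.8% were called higher and 21.1% lower at 6 h, and 21.6% higher and 25.1% lower at 12 h. The counts of the word lists are to be read beside these shares. Outside the members, 2 further annotated probe sets were described as 4CL-like. LOC100253117 rose, with 231 to 432 in control leaves, 2255 to 3046 at 6 h and 2076 to 2331 at 12 h, with log2 changes of 3.22 ± 0.23 and 2.95 ± 0.23 (limma, adjusted p = 1.52e-06 and 1.97e-06). The other, which has no gene symbol, had log2 changes of -0.92 at 6 h and -0.29 at 12 h and was not called.

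The shikimate pathway, which supplies phenylalanine, had 17 probe sets, with 13 calls higher and 2 lower at each time and median log2 changes of 2.81 and 2.82. Some of its genes have several probe sets, so these are not all separate genes. LOC100258475, a 3-deoxy-D-arabino-heptulosonate-7-phosphate (DAHP) synthase, which opens the shikimate pathway, changed by 4.23 at 6 h and 4.16 at 12 h. Its other probe set changed by 3.66 and 3.88. LOC100243536, similar to the Arabidopsis dehydroquinase and shikimate dehydrogenase, changed by 2.94 and 5.48 and was the only probe set of the list called between 12 h and 6 h (log2 change of 2.54). LOC100266919, similar to a putative shikimate kinase, had log2 changes of -1.36 at 6 h and -1.98 at 12 h. With its other probe set they were -1.26 and -1.24, and both lower calls of the list came from this gene. The study names it shikimate kinase-like. LOC100262762, titled shikimate kinase, rose with log2 changes of 2.05 and 1.89. Whether LOC100266919 acts in this supply route is not given by these data.

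Downstream of p-coumaroyl-CoA the branches differed in their counts. Stilbene synthase is the enzyme that makes resveratrol. All 12 probe sets found by the words stilbene or resveratrol synthase rose at both times, with median log2 changes of 8.05 at 6 h and 7.85 at 12 h. Their summed intensity was 380 to 480 in control leaves, 115241 to 124306 at 6 h and 135901 to 137593 at 12 h. Several of these probe sets can match more than 1 stilbene synthase transcript, since the genes of this family are near copies, so they are not separate genes. Another of the 12 is described as a truncated stilbene synthase pseudogene. The study lists a further stilbene synthase probe set, also higher at both times, that the words did not find.

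Of 26 probe sets found by words for flavonoid synthesis, 6 were higher and 13 lower at 6 h, against 5 higher and 12 lower at 12 h. Their median log2 changes were -0.96 and -0.88. The list takes in MYB4A, titled a repressor transcription factor and not called, and some genes such as CHS have more than 1 probe set. The study lists further flavonoid probe sets that the words did not find, some of them higher and some lower. CHI, chalcone isomerase, rose with log2 changes of 3.33 at 6 h and 3.44 at 12 h, and LOC100264239, similar to an Arabidopsis leucoanthocyanidin dioxygenase-like protein, with 6.24 and 7.44. The flavonol synthase LOC100232938 fell, with -3.82 at 6 h and -4.30 at 12 h. LOC100263698 had -5.17 and -6.13, but its probe set description names chalcone synthase while the study lists it as an aquaporin, so its identity is unsettled. The flavonoid list also differed between control arrays, with summed intensities of 22145, 28687 and 43142 in control replicates 1, 2 and 3, and 9 of its 26 probe sets were higher by 1 or more in log2 in control replicate 3. Without this array 6 were called higher and 13 lower at 6 h, and 5 higher and 14 lower at 12 h.

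Of 24 probe sets of lignin precursor synthesis, 5 were higher and 8 lower at 6 h, while 7 were higher and 9 lower at 12 h, with median log2 changes of -0.50 and -0.78. The higher calls at 6 h were close to the share of all annotated probe sets (17.8%). Several of these higher calls were probe sets that match LOC100264014, and LOC100253488 had more than 1 probe set among the lower calls. The counts are thus not counts of separate genes. LOC100264014, a caffeic acid O-methyltransferase, had 4.0 at 6 h and 3.72 at 12 h. Of the probe sets similar to cinnamoyl-CoA reductase, only LOC100253987 rose, with 3.57 and 3.29. The others had negative log2 changes at both times, with -2.62 and -2.88 for GSVIVT00013987001. LOC100258760, similar to a putative Arabidopsis anthranilate N-hydroxycinnamoyl/benzoyltransferase, had -4.25 and -3.71. It entered the list by the word hydroxycinnamoyl, and its part in lignin synthesis is not given. LOC100264014, LOC100253987, GSVIVT00013987001 and LOC100258760 were called at both times.

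**Figure D4:**
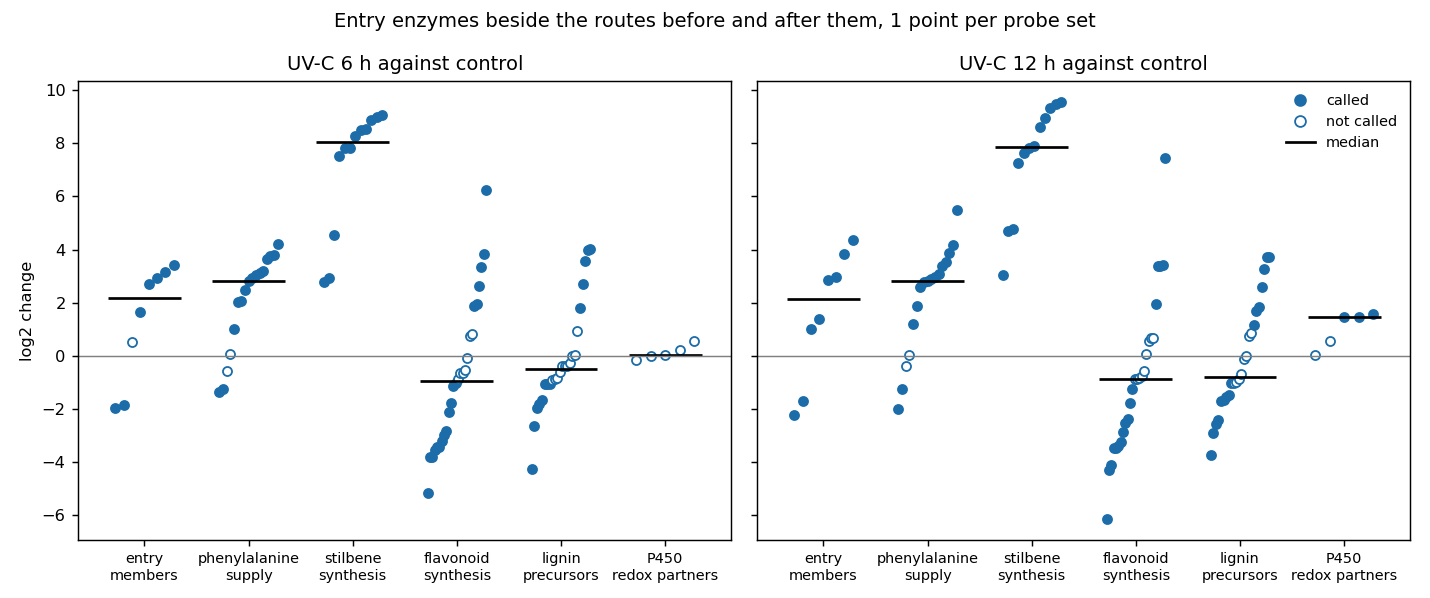
Each point is the log2 change of 1 probe set at 6 h against control (left) and at 12 h against control (right), for the entry members and 5 word lists of the same pathway, filled where called, with a line at the median. The stilbene points all lie above 0 (medians 8.05 and 7.85), and the flavonoid and lignin points lie on both sides of 0.

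Cytochrome P450 enzymes such as C4H take electrons from a reductase or by way of cytochrome b5. The word list for these partners found 5 probe sets, 1 of which is cytochrome b559 of photosystem II and only shares the word. At 6 h 0 of 5 were called (limma), with LOC100250986 alone past the unadjusted and the adjusted threshold but under 2-fold (log2 change of 0.58), and at 12 h 3 of 5 rose. Chosen after their values were seen, these were the cytochrome b5-like LOC100250986 with a log2 change of 1.46, and the genes similar to NADH-cytochrome b5 reductase, LOC100247986 with 1.59 and LOC100263819 with 1.48. No annotated probe set matched the words P450 reductase.

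A Kelch-repeat F-box protein can mark PAL for degradation in Arabidopsis. The only annotated probe set titled so here, LOC100251624, gave 25.2 to 37.1 in control leaves, 355 to 820 at 6 h and 1141 to 1800 at 12 h. The log2 change was 3.96 ± 0.31 at 6 h and 5.49 ± 0.31 at 12 h (limma, adjusted p = 3.27e-06 at 6 h and 2.37e-07 at 12 h). Whether this grape gene acts on PAL was not tested.

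Words for other leaf tissues found further probe sets. The words for xylem found 12, all of them described as cellulose synthases or similar proteins, of which 7 were called lower at 6 h and 8 at 12 h, with 1 called higher at each time. Only LOC100241197 is described as IRX3, a cellulose synthase of the secondary wall in Arabidopsis, with log2 changes of -1.39 at 6 h and -1.94 at 12 h, so the list as a whole does not mark xylem. Of 13 found by words for the epidermis and its lipid transfer proteins, 8 were called lower at each time and 0 higher. Summed intensities of the epidermis list were 79639 to 99938 in control leaves, 41569 to 48119 at 6 h and 33580 to 37207 at 12 h, and those of the cellulose synthases 8000 to 10064, 4018 to 4714 and 3224 to 4238. The part of leaf tissues in the fall of the PAL genes LOC100233012 and LOC100241575 was not tested. No annotated probe set matched the words for phloem.

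The probe sets with the pattern closest to each member were found among 9167 others with a gene symbol, by the root-mean-square difference over the 9 arrays of log2 values centred on control. The nearest to LOC100254698 (4CL 1) was LOC100233115, a DAHP synthase (0.17), followed by LOC100246134, similar to 6-phosphogluconate dehydrogenase (0.19). PAL LOC100241377 was nearest to LOC100254904 (0.08) and GSVIVT00030529001 (0.14), which carry no function in the annotation. Of the falling PAL genes, LOC100233012 was nearest to LOC100247135 (0.21) and to LOC100252628, similar to a zinc-finger protein (0.23), and LOC100241575 to LOC100263034 (0.20) and the MLO14 protein (0.21).

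The C4H probe sets had less close neighbours. The gene-specific one was nearest to LOC100253773 (0.44) and to LOC100255189, similar to ATP citrate-lyase (0.49), and the shared one to GSVIVT00028026001 (0.37) and LOC100256539 (0.42). The gene 4CL was nearest to LOC100245702, similar to cytidine deaminase (0.23), and LOC100248394 (0.25). LOC100267198 was nearest to LOC100259138, similar to a protein disulfide isomerase (0.11), and LOC100266121, similar to a nuclear DNA-binding protein (0.12). These distances describe likeness over 9 arrays that share their groups, and carry no test.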

How the data were processed

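Total RNA of 9 leaf samples was hybridized to Affymetrix V. vinifera Genome Arrays. The authors adjusted the background and normalized by quantiles with RMA, and deposited 1 intensity per probe set and array on a linear scale, from 3.8 to 30874. They also deposited SAM tables (scores, q-values and fold changes), of which only the annotation was used here. Array images were not used here.

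The log2 of each intensity was fitted for the 3 groups together by limma 3.58.1 (lmFit, eBayes; R 4.3.3), with 6 residual and 3.42 prior degrees of freedom, in place of the SAM test of the study. Of 16601 probe sets, 165 Affymetrix controls were left out. P-values were adjusted by Benjamini and Hochberg over 16436 probe sets, and errors after ± are standard errors in log2. Contrasts within an enzyme were tested by exact two-sided permutation over arrays in Python 3.11.15 with scipy 1.17.1. Figures were drawn with matplotlib 3.10.9. The fit was tested on simulated data. The number of arrays limits the precision.

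The annotation covers 10471 probe sets, those in the SAM tables, and these were called more often than the rest (38.8% against 5.05% at 6 h). Probe sets outside it could not be found by a symbol or a word. Lists are word searches over gene titles and probe set descriptions, since gene titles alone held fewer entries (8 of 17 for phenylalanine supply, 14 of 26 for flavonoid synthesis and 4 of 24 for lignin precursors). A word search can take in genes that share only a word. All 7 member symbols are in the RefSeq gene table, whose assembly is not that of the array, so no coordinates are given. From each pathway list up to 2 rising and 2 falling genes were named, those with the largest change at 12 h among those called at both times, and for each member the 2 probe sets nearest in pattern. The members and lists were chosen with earlier results of these data known. Alternatives to the threshold, the fit, the filter on dim probe sets, the normalization, the probe sets tested, the pairing and the arrays used were tried.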

Additional observations from a re-analysis of the deposited data

Results flagged for a closer look

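Members and probe sets of the pathway lists that differed between 12 h and 6 h by a test of that difference (limma, adjusted over all probe sets tested) are given here. Among the members, the 4CL-like LOC100267198 was higher at 12 h by 0.87 in log2, with adjusted p = 0.00207 and all 3 arrays of 12 h above those of 6 h, though below 2-fold. The list probe sets given changed by at least 2-fold, and those outside the naming rule were chosen after their values were seen. LOC100243536, similar to dehydroquinase and shikimate dehydrogenase, was higher by 2.54, and a stilbene synthase 2 probe set without a gene symbol by 1.87. In the flavonoid list 2 probe sets were higher at 12 h, LOC100267819 (similar to flavonol synthase) by 2.54 and LOC100264239 (similar to leucoanthocyanidin dioxygenase) by 1.2, and 4 were lower. The lower ones were LOC100263428, similar to a flavonoid 3-hydroxylase, with a log2 change of -1.88, LOC100246482, similar to a flavonol glucosyltransferase, with -1.25 and -1.21 for its probe sets, and LOC100258689, similar to anthocyanidin reductase, with -1.14. LOC100259003, similar to caffeic acid O-methyltransferase, was higher by 1.53 and the F-box/kelch gene LOC100251624 by 1.53. The NADH-cytochrome b5 reductase-like genes LOC100247986 and LOC100263819 were higher by 1.76 and 1.27.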

How the results depend on the processing

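The direction of the member changes against control held under all alternatives run. The count of member calls stayed at 7 at 6 h and lay between 7 and 8 at 12 h when each array was left out in turn, and at 0 throughout for 12 h against 6 h. With no fold threshold, 1 member was called for 12 h against 6 h (LOC100267198), and all 8 at 6 h. The gene 4CL at 12 h fell short of 2-fold also with centring on the hybridization controls (1.84-fold) and with a further quantile normalization (1.96-fold). Without control replicate 3, the adjusted p of 12 h against 6 h (limma) was 0.0399 for both C4H probe sets and 0.0308 for 4CL, still under 2-fold. The log2 changes themselves stayed at 0.94 and 0.89 for C4H and at -0.65 for 4CL. Control arrays enter this comparison only through the spread that the groups share in the fit. Centring the arrays on their medians moved the median change of all probe sets by 0.13 at 6 h and 0.14 at 12 h, and the hybridization controls moved it by -0.16 and -0.14. The contrasts between members, recomputed with alternatives chosen after seeing the data, kept their sign in 146 of 147 values, and the contrast of LOC100233012 and LOC100241575 at 6 h, -0.12 with overlapping arrays, was 0.23 without UV-C 6 h replicate 3. Of the list counts, 17 moved by over 1.5 times and 523 did not. With no fold threshold, 20 of 24 lignin precursor and 26 of 37 leaf marker probe sets were called at 6 h.

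Same-numbered replicates did not deviate together (correlations of -0.16 to 0.14), and the replicate block left the member calls at 7, 8 and 0, and all calls at 4358, 5285 and 1118, against 4367, 5291 and 1130 without it.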

Other observations

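The genes that were higher in control replicate 3 than in the other controls included members that rose and members that fell after UV-C, and flavonoid genes that fell. CHS, chalcone synthase, the first enzyme of flavonoid synthesis, gave 530, 1506 and 4376 in control replicates 1, 2 and 3 with 1 probe set and 594, 1582 and 3278 with the other, and log2 changes of -3.19 and -3.54 at 6 h. LDOX, leucoanthocyanidin dioxygenase, gave 312, 928 and 1788, and F3H, flavanone 3-hydroxylase, gave 329, 683 and 1651. The stilbene synthase list was not higher there, with sums of 456, 480 and 380. These genes were chosen after their values were seen, and the reason for the difference between control arrays was not tested.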
